A study of Sus scrofa with 5 samples.

Results

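The extracellular matrix and stromal genes of pig backfat were taken as the genes of the array whose symbol belongs to the collagens, laminins, fibulins, fibrillins, thrombospondins, lysyl oxidases, matrix metalloproteinases, ADAMTS proteases or tissue inhibitors of metalloproteinases, together with DCN, LUM, BGN, DPT, FN1, SPARC, MFAP5 and POSTN. Of 6765 genes with a probe set of 1 symbol, 49 were members, read by 93 probe sets, and each gene is given by its probe set of the highest mean over the arrays. The rule used names only and no difference between groups, but the members were chosen with earlier results of these data known. Backfat RNA of 5 untreated females of an Iberian × Landrace backcross (BC1_LD) was hybridized to Affymetrix porcine arrays, 1 array per animal. The H group (BC4, BC5 and BC6) came from animals with more polyunsaturated fatty acids in muscle, and the L group (BC2 and BC3) from animals with more saturated and monounsaturated ones. The groups were set by a principal component of carcass and fatty acid traits, and all animals ate the same commercial diet without restriction and were slaughtered at a similar age. Each array is a whole piece of fat from 1 animal of 1 cross, and precision is limited by having 3 animals against 2.

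White adipose tissue is held together by a mesh of fibrillar collagens and by a basement membrane of type IV collagen and laminin around each adipocyte and capillary. Fibroblasts and preadipocytes are known to make most of the fibrillar matrix, adipocytes and endothelial cells contribute much of the basement membrane, and metalloproteinases and their inhibitors control its turnover as fat cells enlarge. Lysyl oxidases cross-link collagen and elastin, and small leucine-rich proteoglycans bind collagen fibrils.

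Expression is given on the log2 scale as deposited, where 1 unit is a doubling, with a floor of 2.17 at which 23.2% of all 23999 probe sets lay on every array. Among the 49 members, 35 reached a value of at least 3 on some array and are called measured here, a minimum chosen after the values were seen. The other 14 stayed under it on all 5 arrays, 8 of them at the floor throughout. Adipocyte markers were in place, since all 8 with a probe set, of 10 listed, were measured, and FABP4, the fatty acid carrier of adipocytes, lay between 15.36 and 15.49 on every array. On BC5, ADIPOQ, the adiponectin gene, was at 9.09, under the 10.52 to 12.20 of the other 4 arrays. LEP (4.41, against 8.27 to 10.48), CEBPA (5.71, against 7.21 to 7.53) and LPL (12.84, against 13.52 to 14.01) were also lowest on BC5. BC5 was highest for 2 of the 8 markers, FABP4 and LIPE. Of the 8, 2 had a higher and 6 a lower mean in H, with a median H minus L of -0.33. Without BC5 the numbers were 4 and 4 and the median -0.03. BC5 and BC3 also carried skeletal muscle signal, with MYH2, a fast myosin heavy chain, at 7.84 and 4.75, against 2.17 to 2.71 on the others. In bulk tissue, fewer cells of a type and less RNA per cell cannot be told apart, and this applies to all values below.

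No member passed the threshold between the groups (p at most 0.01, Benjamini-Hochberg adjusted p at most 0.1 and a fold difference of at least 1.2 in limma), nor did any other probe set (0% of 23999). Every member had an adjusted p of 1 from limma, and 0 of the 35 measured members were under an unadjusted p of 0.05, against 5.4% of the 5244 measured genes and 3.18% of all probe sets. Of the 35, 16 had a higher and 19 a lower mean in H, with a median H minus L of -0.02, while 49.2% of all measured genes had a higher mean in H. Groups did not overlap for 2 members (5.71%), against 19.7% of all measured genes. One of them, TIMP2, had all H animals above both L animals, as did 8.94% of measured genes, and the other, TIMP3, had them below, as did 10.8%. The range among the 3 H animals exceeded the size of H minus L for 33 of the 35 members (94.3%), and for 81.6% of all measured genes. The balance of directions moved with the animals included. Without BC6, 10 of the 35 members had a higher mean in H and the median was -0.24, and without BC4, BC5 or BC3 the number was 24, 23 and 23 and the median 0.09, 0.16 and 0.19. Without BC2 the number was 18 and the median 0.03.

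**Figure D1:**
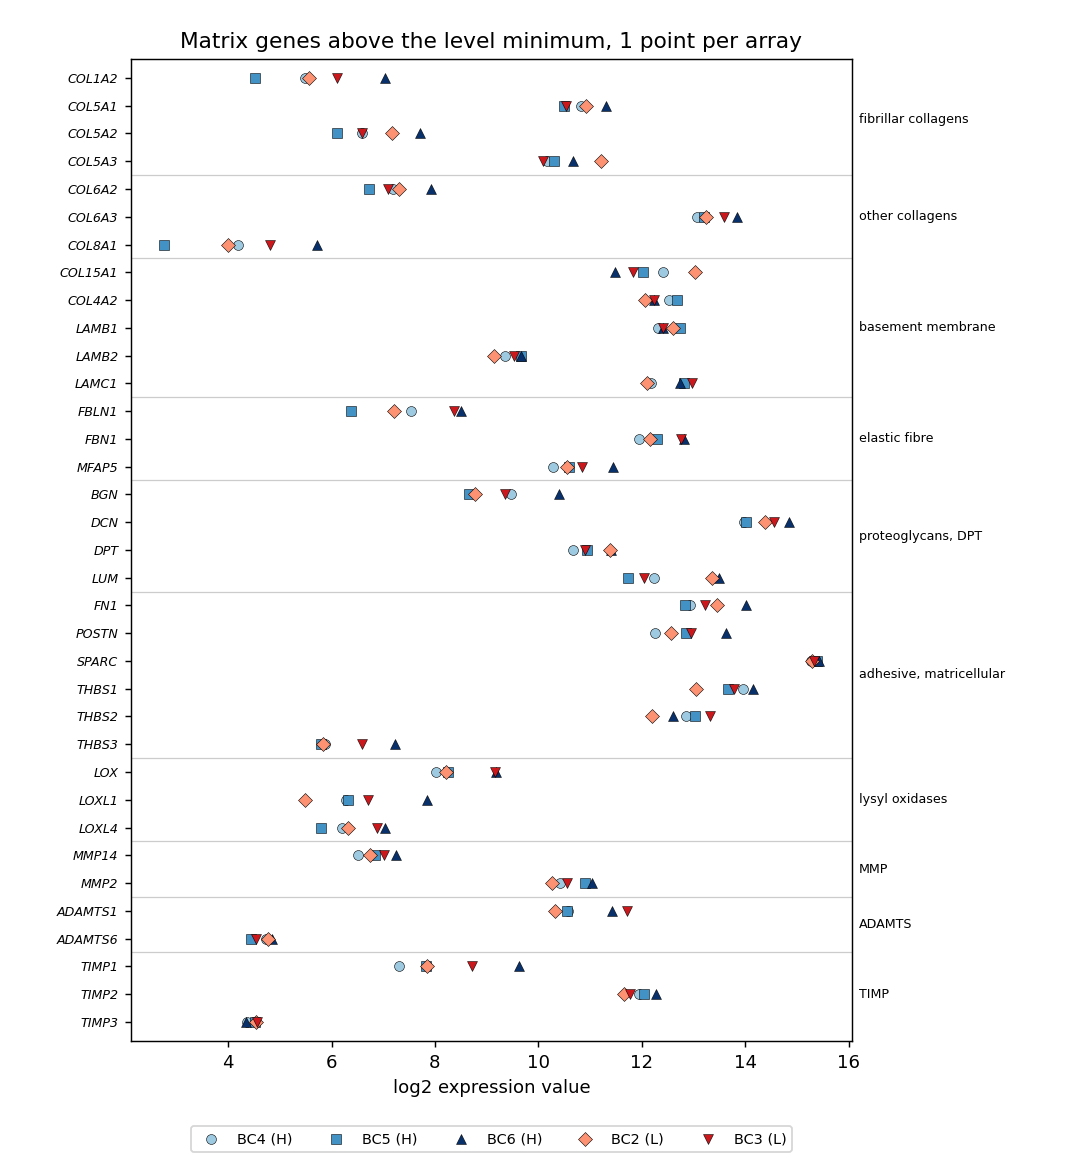
Expression value (log2, horizontal axis) of the 35 measured matrix genes, in rows by class, with 1 point per array, blue for the 3 H animals and red for the 2 L animals. BC6 is the rightmost point in 26 of the 35 rows, and the H and L points overlap in all rows but TIMP2 and TIMP3.

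The spread among animals was wide and had a common shape. BC6, of the H group, gave the highest of the 5 values for 26 of the 35 members (74.3%), against 20.9% of all measured genes. BC4 was highest for 0 members and BC5 for 3 (17.1% and 22.8% of all measured genes), and BC2 for 2 and BC3 for 4 (22.6% and 16.6%). Among the H animals alone, BC6 came first for 28 members (80%), against 32.8% of all measured genes. BC4 gave the lowest of the 5 values for 11 members and BC5 for 12, against 14.8% and 29.3% of all measured genes. Over the members, BC6 lay above BC4 by a median of 0.77 and above BC5 by a median of 0.78, while the medians over all measured genes were -0.01 and 0.02. In the L group, BC3 lay above BC2 for 25 of 35 members (71.4%, against 54.4% of all measured genes), by a median of 0.30. The median SD over the 5 arrays was 0.433 for the members and 0.261 for all measured genes. The order of single animals is a description without a test.

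**Figure D2:**
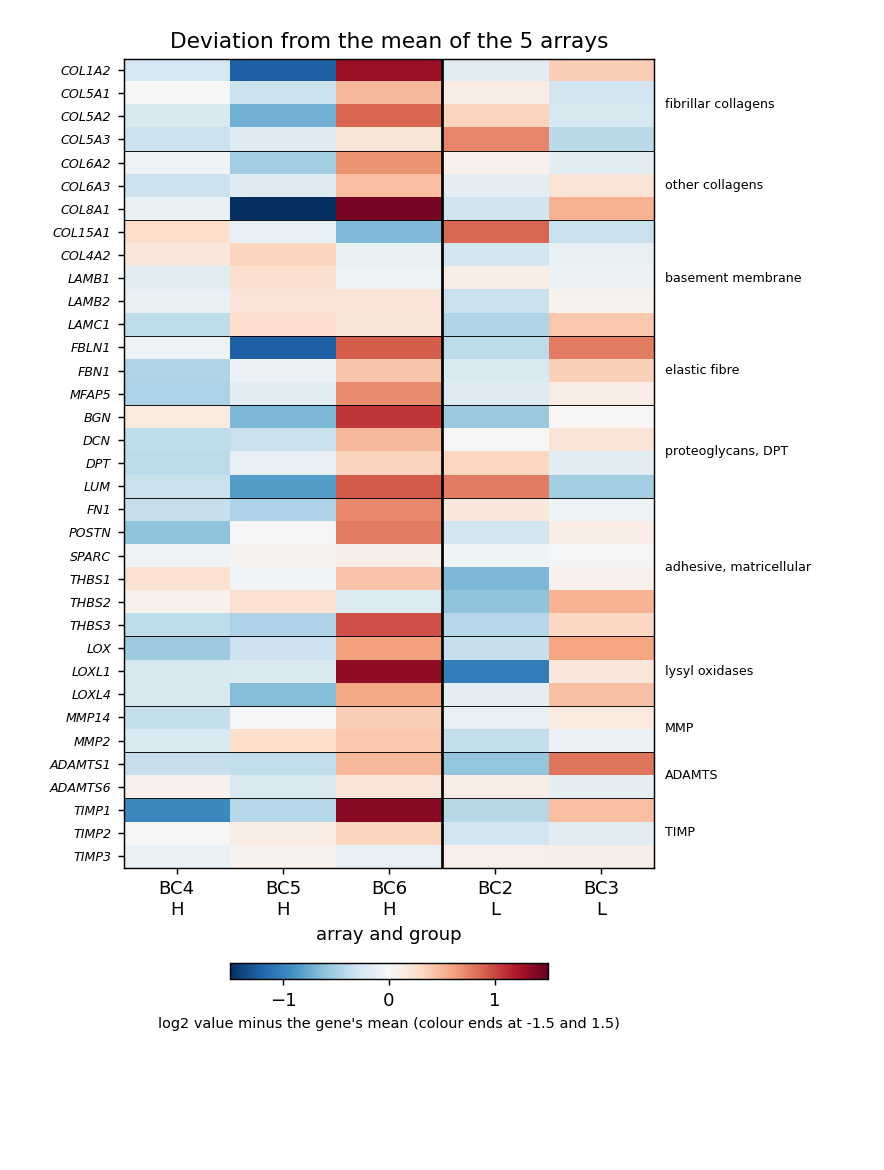
Deviation of each measured matrix gene (rows, by class) from its own mean over the 5 arrays, in log2 units, with the H arrays BC4, BC5 and BC6 left of the line and the L arrays BC2 and BC3 right of it. BC6 has the highest of the 5 values in 26 of the 35 rows and in 0 of the 5 basement membrane rows, against 20.9% of all measured genes.

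Fibrillar collagens form the ropes of the tissue, and 7 of the 11 listed had a probe set, of which 4 were measured. COL1A2, a chain of type I collagen, had 5.48, 4.52 and 7.04 in H, against 5.57 and 6.11 in L. The H animals lay on both sides of the L animals, with BC6 the highest and BC5 the lowest of all 5. Means were 5.68 ± 1.27 in H (SD, n = 3) and 5.84 ± 0.379 in L (SD, n = 2), and H minus L was -0.16 with a standard error of 0.92 and a 95% interval of -2.91 to 2.59. A dimmer probe set of COL1A2 ran in another order, with 4.52, 4.54 and 4.70 in H, against 4.87 and 4.08 in L. It was highest on BC2 and lowest on BC3, and its H minus L was 0.11. COL5A1 had 10.83, 10.49 and 11.30 in H, against 10.93 and 10.53 in L, and COL5A2 had 6.60, 6.11 and 7.72 in H, against 7.17 and 6.60 in L. Both are chains of type V collagen, which sets the width of type I fibrils, and both were highest on BC6 and lowest on BC5. A further type V chain, COL5A3, had 10.17, 10.30 and 10.68 in H, against 11.22 and 10.09 in L, and was highest on BC2. H minus L came to 0.14 for COL5A1, -0.08 for COL5A2 and -0.27 for COL5A3, with standard errors of 0.32, 0.61 and 0.44. COL3A1, the chain of type III collagen, and COL2A1, that of cartilage collagen, stood at the floor throughout and have no measured level here. COL11A1, a minor fibrillar chain, reached 2.92 on BC6 and lay between 2.17 and 2.35 elsewhere. No probe set had COL1A1 as its single symbol.

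Among the other collagens, 3 of 6 were measured and all 3 were highest on BC6. COL6A3, a chain of the beaded type VI filaments that surround adipocytes, had 13.06, 13.20 and 13.83 in H, against 13.25 and 13.58 in L. BC6 was above both L animals and BC4 and BC5 below them, which left H minus L at -0.05 (standard error 0.31). COL6A2, a partner chain, had 7.20, 6.73 and 7.92 in H, against 7.31 and 7.10 in L, and H minus L was 0.08 (standard error 0.43). COL8A1, a short-chain collagen of vessel walls, had 4.19, 2.76 and 5.71 in H, against 3.99 and 4.81 in L, the widest range of any member within H. Its value on BC5 lay under the minimum of 3, so no fold is given. COL17A1 did not exceed 2.38, and COL7A1 and COL10A1 stayed at the floor.

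For the basement membrane genes, each by its brightest probe set, BC6 was not the highest array. All 5 with a probe set were measured, and 0 of the 5 were highest on BC6, against 20.9% of all measured genes. A count of 0 in 5 is near that share and does not set the class apart from measured genes in general. COL4A2, a chain of the type IV network, had 12.52, 12.69 and 12.23 in H, against 12.06 and 12.24 in L. H minus L was 0.33 with a standard error of 0.17 and a 95% interval of -0.19 to 0.85, and the groups overlapped because BC6 lay just below BC3. Its highest value was on BC5, as were those of the laminin beta chains LAMB1 and LAMB2. LAMB1 had 12.31, 12.74 and 12.42 in H, against 12.61 and 12.41 in L, and LAMB2 had 9.36, 9.67 and 9.67 in H, against 9.13 and 9.52 in L. BC5 and BC6 were nearly level for LAMB2, at 9.671 and 9.669. H minus L was 0.24 for LAMB2 and -0.02 for LAMB1 (standard errors 0.19 and 0.17), and LAMB2 came to 0.042 without BC2 and 0.43 without BC3. LAMC1, the gamma chain shared by most laminins, had 12.17, 12.81 and 12.74 in H, against 12.11 and 12.97 in L, lowest on BC2 and highest on BC3. In the dimmer probe sets of LAMC1 and LAMB1, BC6 was the highest of the H animals. It lay there below BC3 for LAMC1 and below BC2 for LAMB1. COL15A1, a collagen at the outer face of basement membranes, ran the other way from most members, with 12.42, 12.03 and 11.49 in H, against 13.02 and 11.82 in L. It was lowest on BC6 and highest on BC2, and H minus L was -0.44 (standard error 0.53). No probe set had COL4A1 as its single symbol.

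Endothelial markers stand beside these genes, since endothelial cells make basement membrane. Of 10 listed, 9 had a probe set and 8 were measured, KDR staying under the minimum. Of the 8, 7 were highest on BC5 and 1 on BC3, against 22.8% and 16.6% of all measured genes. TIE1, among the 7, reached the minimum only on BC5 (4.20, against 2.21 to 2.37 elsewhere), so the minimum fixed its place. The log2 of the summed signal of the 8 ran from 13.32 on BC6 to 14.21 on BC5 in H. In L it ran from 13.09 to 13.64. The part of these markers in the basement membrane values was not tested.

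Elastic fibres give recoil to the tissue, and their 3 members were all measured and all highest on BC6. FBLN1, fibulin 1, had 7.53, 6.38 and 8.51 in H, against 7.20 and 8.38 in L. BC5 and BC6 of the same group were the extremes of the 5 animals. FBN1, the main microfibril protein, had 11.94, 12.30 and 12.81 in H, against 12.16 and 12.76 in L, with BC6 and BC3 nearly level at the top. MFAP5, a glycoprotein of microfibrils, had 10.27, 10.59 and 11.45 in H, against 10.55 and 10.85 in L. H minus L was -0.32 for FBLN1, -0.11 for FBN1 and 0.07 for MFAP5, with standard errors of 0.86, 0.37 and 0.44.

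The small leucine-rich proteoglycans and dermatopontin were highest on BC6 in 4 of 4 genes. DCN, decorin, had 13.98, 14.02 and 14.86 in H, against 14.38 and 14.55 in L, so BC4 and BC5 lay under both L animals and BC6 above both. BGN, biglycan, had 9.47, 8.66 and 10.41 in H, against 8.77 and 9.35 in L, and was lowest on BC5. LUM, lumican, had 12.24, 11.74 and 13.49 in H, against 13.35 and 12.05 in L. Each group was split for LUM, with BC6 and BC2 high and the other 3 animals low. DPT, dermatopontin, which binds decorin, had 10.68, 10.95 and 11.41 in H, against 11.38 and 10.91 in L, with BC6 and BC2 again at the top. H minus L was 0.45 for BGN (standard error 0.65), but 0.0056 without BC6, 0.16 without BC2 and 0.88 without BC5. It was -0.18, -0.21 and -0.13 for DCN, LUM and DPT (standard errors 0.35, 0.78 and 0.31), and DCN ran from -0.47 without BC6 to -0.028 without BC4.

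Of the adhesive and matricellular glycoproteins, which link matrix to cells, 5 of 6 had a higher mean in H and 5 of 6 were highest on BC6. Without BC6, and likewise without BC2, 3 of the 6 had a higher mean in H. SPARC, which helps collagen leave the cell and assemble, had 15.28, 15.39 and 15.43 in H, against 15.29 and 15.33 in L. The 5 animals were close together, and H minus L was 0.05 with a 95% interval of -0.11 to 0.22. THBS1, thrombospondin 1, an activator of latent TGF-beta, had 13.96, 13.68 and 14.15 in H, against 13.05 and 13.79 in L. BC2 was low and the other 4 animals lay between 13.68 and 14.15. H minus L was 0.51 with a standard error of 0.31 and a 95% interval of -0.42 to 1.44, its other 2 measured probe sets gave 0.73 and 1.12, and it was 0.14 without BC2 and 0.88 without BC3. FN1, fibronectin, had 12.94, 12.83 and 14.01 in H, against 13.45 and 13.23 in L, with both L animals between BC6 and the other H animals. POSTN, periostin, had 12.26, 12.85 and 13.63 in H, against 12.57 and 12.96 in L. A dimmer probe set of POSTN ran in another order, with 7.29, 7.72 and 5.27 in H, against 8.16 and 5.997 in L, and was lowest where the first was highest. THBS2 and THBS3 are further thrombospondins. THBS2 had 12.86, 13.03 and 12.60 in H, against 12.19 and 13.32 in L, with BC2 lowest and BC3 highest, and THBS3 had 5.88, 5.80 and 7.23 in H, against 5.84 and 6.58 in L. Standard errors of H minus L were 0.47 for FN1 (-0.08), 0.51 for POSTN (0.15), 0.43 for THBS2 (0.07) and 0.62 for THBS3 (0.10).

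All 3 lysyl oxidases were highest on BC6 and next highest on BC3. LOX had 8.02, 8.25 and 9.19 in H, against 8.22 and 9.16 in L, which left 1 animal of each group well above the rest. LOXL1, needed for elastic fibre cross-linking, had 6.29, 6.32 and 7.86 in H, against 5.49 and 6.70 in L. Its H minus L of 0.72 was the largest among the members, against a standard error of 0.76 and a 95% interval of -1.57 to 3.01, and came to 0.12 without BC2, 0.21 without BC6 and 1.33 without BC3. LOXL4 had 6.19, 5.79 and 7.02 in H, against 6.31 and 6.88 in L. H minus L was -0.20 for LOX and -0.26 for LOXL4 (standard errors 0.55 and 0.49).

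Matrix-degrading enzymes were mostly without signal, as 6 of the 8 metalloproteinases with a probe set (MMP1, MMP3, MMP7, MMP9, MMP13 and MMP20) never exceeded 2.18. MMP2, the gelatinase of mesenchymal cells, had 10.41, 10.91 and 11.04 in H, against 10.27 and 10.55 in L. BC5 and BC6 were above both L animals and BC4 was between them, and H minus L was 0.38 with a standard error of 0.25 and a 95% interval of -0.38 to 1.14, or 0.24 without BC2 and 0.56 without BC4. MMP14, the membrane enzyme that activates pro-MMP2, had 6.51, 6.84 and 7.24 in H, against 6.74 and 7.02 in L, and H minus L was -0.02 (standard error 0.27). ADAMTS1, a protease of versican and aggrecan, had 10.58, 10.55 and 11.42 in H, against 10.32 and 11.72 in L. It was high in 1 animal of each group, and its H minus L of -0.17 (standard error 0.60) was 0.53 without BC3 and -0.87 without BC2. ADAMTS6, a further member of that family, had 4.74, 4.44 and 4.86 in H, against 4.78 and 4.54 in L, and ADAMTS20 was at the floor.

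The inhibitors held both members whose groups did not overlap. TIMP2, which binds MMP2 and also serves its activation, had 11.94, 12.05 and 12.28 in H, against 11.66 and 11.78 in L. Means were 12.09 ± 0.172 in H (SD, n = 3) and 11.72 ± 0.082 in L (SD, n = 2), and H minus L was 0.37, with a standard error of 0.13, a 95% interval of -0.01 to 0.76, an unadjusted p of 0.0534 and an adjusted p of 1 from limma. It ran from 0.28 to 0.45 when any 1 animal was left out. A second probe set of TIMP2 had 11.02, 11.55 and 11.79 in H, against 11.48 and 11.74 in L, with overlapping groups and an H minus L of -0.16. TIMP3, which is bound to the matrix, had 4.37, 4.53 and 4.34 in H, against 4.55 and 4.55 in L, and H minus L was -0.14 with a standard error of 0.069 and a 95% interval of -0.34 to 0.07. BC5 lay close under the L animals and the other H animals further below. TIMP1, a soluble inhibitor, had 7.30, 7.83 and 9.62 in H, against 7.84 and 8.71 in L. Its value on BC6 was 5.00 times that on BC4 and 3.45 times that on BC5, while H minus L was -0.03 (standard error 0.91). TIMP4 was at 2.17 on all arrays.

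**Figure D3:**
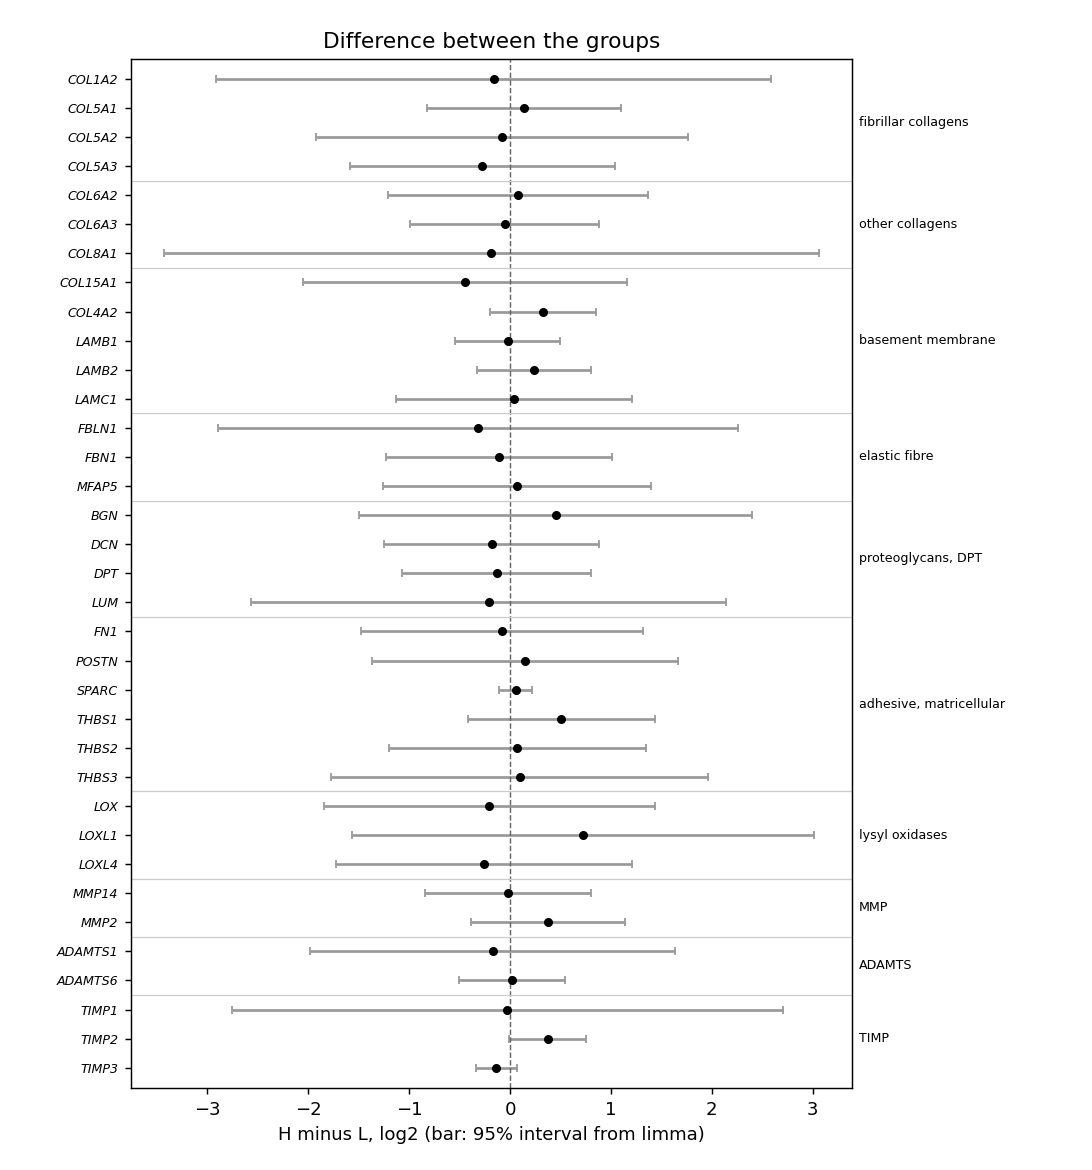
Difference of H and L on the log2 scale (points) with its 95% interval from limma (bars) for the 35 measured matrix genes, in rows by class, where values right of 0 are higher in H. All intervals include 0, that of TIMP2 from -0.01 to 0.76, and that of COL1A2 from -2.91 to 2.59.

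Beyond the members, genes that act on the matrix were followed in 3 lists, and 0 genes of these lists passed the threshold or were under an unadjusted p of 0.05 in limma. For the enzymes and chaperones that modify, fold and secrete collagen, 12 of 27 listed names had a probe set and were measured, 4 had a higher and 8 a lower mean in H, and the median H minus L was -0.14. Without BC6 the numbers were 0 and 12 and the median -0.35, and without BC4 they were 5 and 7 and the median -0.039. P3H4, a cofactor of collagen lysine hydroxylation, had 4.85, 4.87 and 5.30 in H, against 5.60 and 5.35 in L. All H animals were below both L animals, and H minus L was -0.47 (standard error 0.20). It was the 1 gene of the 12 without overlap, against 19.7% of all measured genes. FKBP14, a foldase of the endoplasmic reticulum that acts on collagens, had 8.57, 7.77 and 8.96 in H, against 9.94 and 8.91 in L, and H minus L was -0.99 (standard error 0.56), or -0.48 without BC2 and -1.51 without BC3. SERPINH1, the collagen chaperone HSP47, had 8.38, 8.73 and 8.92 in H, against 8.54 and 9.08 in L. Of these 12 genes, 7 were highest on BC6, 3 on BC3 and 2 on BC2, against 20.9%, 16.6% and 22.6% of all measured genes.

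Of the TGF-beta ligands, receptors, SMADs and targets, a pathway that drives collagen synthesis, 6 of the 7 with a probe set were measured. The 7 were ligands, receptors and SMADs, with no target among them. All 6 had a higher mean in H, against 49.2% of all measured genes, with a median H minus L of 0.34. TGFB2 stood at 6.50 on all 3 H arrays, between the L values of 6.81 and 5.91. TGFBR3 exceeded 3 only on BC6 (4.09), with 2.61 to 2.82 elsewhere. It was counted only through this H array, so the minimum fixed its highest array, and its higher mean in H rests on BC6. One gene had a lower mean in H when an animal was left out, TGFBR3 without BC6, TGFB3 without BC2 and TGFB2 without BC3. The median was then 0.10, 0.22 and 0.64, and 0.69 without BC5. TGFB1, the main ligand, had 5.57, 6.40 and 6.60 in H, against 4.66 and 5.57 in L. BC2 was the lowest, BC3 and BC4 were level, and H minus L was 1.07 (standard error 0.50) and 0.62 without BC2. TGFBR1, a receptor, had 11.01, 10.50 and 11.15 in H, against 9.79 and 10.72 in L, and H minus L was 0.63 (standard error 0.41) and 0.17 without BC2. With the mean of all probe sets, TGFB1 came to 0.61 and TGFBR1 to 0.28. BC6 was the highest array for 5 of these 6 genes, TGFBR3 among them, against 20.9% of all measured genes.

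For the integrins and other matrix receptors, 8 of the 12 with a probe set were measured, 5 with a higher and 3 with a lower mean in H, and the median H minus L was 0.18. Without BC6 and without BC2 the numbers were 3 and 5, with medians of -0.061 and -0.15, and without BC3 the median was 0.43. SDC4, a syndecan of focal adhesions, had 5.88, 5.46 and 5.99 in H, against 6.23 and 6.32 in L, and H minus L was -0.50 (standard error 0.20). It was the 1 gene of the 8 without overlap, against 19.7% of all measured genes. ITGB1, the beta subunit of the collagen-binding integrins, had 12.83, 12.97 and 13.03 in H, against 12.62 and 12.87 in L, and H minus L was 0.20 (standard error 0.11), or 0.076 without BC2 and 0.32 without BC3. BC2 was the lowest animal for ITGB1, TGFB1 and TGFBR1, and the 3 H animals together did not stand clear of BC3 in any of the 3.

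Macrophage markers were highest on BC6 as well, and the other marker lists were so only in part or not at all. Of 10 macrophage markers listed, 7 had a probe set and 6 were measured, MARCO being at the floor. All 6 were highest on BC6, against 20.9% of all measured genes. CD163, a scavenger receptor of resident macrophages, had 6.77, 6.28 and 8.81 in H, against 7.18 and 8.13 in L, and MRC1, the mannose receptor, had 5.89, 5.98 and 8.43 in H, against 6.31 and 7.47 in L. The next highest array was BC3 for these and C1QA, BC2 for AIF1 and C1QC, and BC5 for CD14. The log2 of the summed macrophage signal was 9.24, 8.99 and 11.35 in H, against 10.00 and 10.22 in L. Of 12 fibroblast and preadipocyte markers listed, 9 had a probe set and 8 were measured, TCF21 being at the floor. Among the 8, 4 were highest on BC6, 3 on BC5 and 1 on BC2, against 20.9%, 22.8% and 22.6% of all measured genes. The log2 of their sum ran from 15.84 to 16.19 in H and from 15.79 to 16.05 in L. THY1, a surface protein of fibroblasts, had 10.96, 10.37 and 12.02 in H, against 11.44 and 11.41 in L, and PDGFRB, a receptor of pericytes and stromal cells, had 12.01, 12.85 and 12.03 in H, against 11.61 and 11.91 in L. THY1 was highest on BC6 and PDGFRB on BC5. The part of these cells in the matrix values was not tested.

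Cartilage, tendon, muscle and skin also carry matrix. Of 12 cartilage and tendon markers listed, 5 had a probe set, and ACAN, HAPLN1 and SOX9 were at the floor on every array. COMP, a thrombospondin of cartilage and tendon, had 5.04, 4.07 and 4.76 in H, against 4.49 and 4.51 in L, and CILP, a matrix protein of cartilage and other connective tissue, had 10.24, 11.58 and 12.36 in H, against 10.51 and 11.88 in L. Of the 7 skin keratinocyte markers listed, 3 had a probe set, and KRT1 and DSP were without signal while KRT10 had 8.98, 8.84 and 8.29 in H, against 8.33 and 8.14 in L. Skeletal muscle markers, 7 of 11 listed and all measured, were highest on BC5 for 6 genes, against 22.8% of all measured genes. TNNI2 (4.21 on BC5, 2.25 to 2.85 elsewhere) and TNNT3 (3.01 on BC5, 2.24 to 2.36 elsewhere) reached the minimum of 3 only on BC5. The minimum thus fixed their place. The log2 sum of these markers was 6.15, 9.19 and 5.68 in H, against 5.71 and 7.15 in L. Of the 6 smooth muscle markers with a probe set, 5 were measured, MYLK being at the floor. They were highest on BC4 for 4 genes, against 17.1% of all measured genes. Their log2 sum was 13.87, 13.06 and 13.32 in H, against 12.68 and 13.55 in L. The part of these tissues in the matrix values was not tested.

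**Figure D4:**
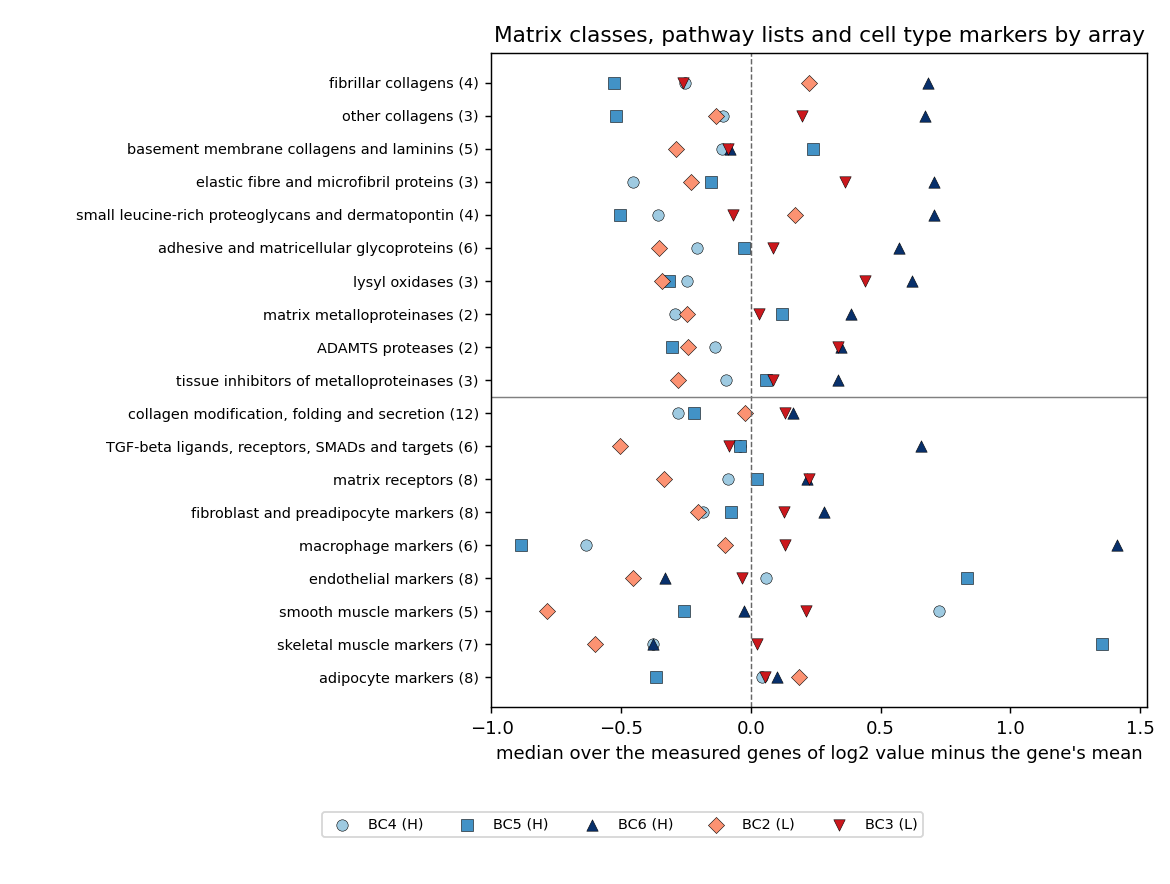
Median, over the measured genes of each class or list (number in parentheses), of the log2 value minus the gene's own mean over the 5 arrays, with 1 point per array, blue for H and red for L, matrix classes above the line and pathway and marker lists below it. BC6 is the rightmost point in all matrix classes but the basement membrane, where BC5 is rightmost at 0.24, and macrophage markers reach 1.41 on BC6.

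The choice of probe set turned many of these small differences. Of the 12 members with at least 2 measured probe sets, 5 had differences of 1 direction and 7 of both (COL1A2, COL5A1, FN1, LAMB1, LAMC1, POSTN and TIMP2). LAMC1 had 4 such probe sets, of which the brightest gave an H minus L of 0.04 and the other 3 gave -0.26 to -0.35. Of the 51 measured member probe sets, 32 were highest on BC6. These include the brightest of each gene, of which 26 of 35 were highest there, so the dimmer ones were highest there less often. By 1 probe set per gene, the share of all measured genes was 20.9%, and the share over all measured probe sets was not computed. Many members also had a probe set without signal. Of 47 member probe sets whose name carries the letter A (A1), 21 stood at the floor on every array, against 6 of 46 whose name carries S (S1). In 14 pairs that share the rest of the name, the S1 probe set was measured in 4 and the A1 probe set in 0.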

How the data were processed

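Backfat RNA of 5 pigs was hybridized to Affymetrix porcine arrays. The log2 values were deposited by the authors after background adjustment, normalization between arrays and summary per probe set. Their methods name GCRMA and the submitters' processing notes name RMA, which leaves the method unsettled, and an extraction note names liver where the tissue label says backfat. Titles give the animal, and the study's text puts BC2 and BC3 in L and BC4 to BC6 in H. A further L animal of the study was not analysed here.

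Of 24123 probe sets, 124 controls were left out and H minus L was fitted for 23999 in limma 3.58.1 (R 4.3.3) without covariates, with p adjusted over all of them. Platform annotation gave 1 symbol to 10069 probe sets, several to 198 and none to 13732, and all 49 member symbols matched RefSeq by gene ID. Members and lists were chosen with earlier results of these data known. The rule for named genes took, per class, the member of the highest mean and the 2 of the smallest p among those above the floor, the main collagen chains, and the 2 of the smallest p per pathway list. The other genes were named to account for all members or as markers, after their values were seen. Alternatives covered the threshold, dim probe sets, scaling, variance model, array weights, choice of probe set and each animal left out. The fit was tested on simulated data.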

Additional observations from a re-analysis of the deposited data

How the results depend on the processing

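The members passing the threshold numbered 0 under all alternatives, including each animal left out. Over all probe sets the number passing was 0 under all alternatives but 2, and ran from 0 to 286 when 1 animal was left out (160 without BC2 and 286 without BC3, where the lone L array is assumed to vary like the H arrays). The members with a higher mean in H, 16 of 35, numbered 10 without BC6 to 24 without BC4, and 13 with array weights, 14 with each array centred on its median and 16 after quantile normalization. BC6 was highest for 23 of 35 members after centring and for 26 after quantile normalization, alternatives chosen after seeing the data, as was the level minimum of 3. Of 28 measured named genes, 15 kept their direction throughout. Centring gave -0.024 for ADAMTS6, -0.011 for COL17A1 and -0.0052 for LAMC1, quantile normalization -0.013 for ADAMTS6, and array weights -0.083 for LAMC1. The mean of all probe sets gave -0.049 for COL5A1 and -0.21 for LAMC1. The probe set of the largest range gave -0.30 for COL5A1, -0.35 for LAMC1 and -0.16 for TIMP2, since it is another probe set. With 1 animal left out, H minus L of the 12 genes that turned ran from -0.87 to 0.53 for ADAMTS1, -0.10 to 0.14 for ADAMTS6, -0.84 to 0.42 for COL1A2, -0.074 to 0.34 for COL5A1, -0.84 to 0.29 for COL5A3 and -0.24 to 0.36 for COL6A2. It ran from -0.29 to 0.11 for COL6A3, -0.90 to 0.27 for FBLN1, -0.41 to 0.19 for FBN1, -0.39 to 0.47 for LAMC1, -0.67 to 0.26 for LOX and -0.60 to 0.026 for LOXL4. Of these 12, 10 turned without BC3. Apart from the animals and probe sets left out, the cause of a turn was not tested. No paired analysis was made, since the H and L animals are different pigs and no matching between the groups is stated. Signal at or near the floor leaves 14 members without a level.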
